A study of Mus musculus with 10 samples.

Results

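The comparison described here sets Iqgap3-high corpus epithelial cells of Runx3 R122C mice against the same sorted fraction of Runx3 WT mice. Its differences rest on 5 of the 10 libraries in the series, 2 from R122C and 3 from WT. The standard errors and p-values of the main fit draw on the spread within all 10. The genes described are the 13773 of 55276 table entries that lay above the listed 0 in at least 2 of these 5 libraries, and 8212 of them lay above 0 in all 5. The R122C libraries are titled R122C IQ3pos-1910C-1 (replicate 1) and R122C IQ3pos-2020C-2 (replicate 2), and the WT libraries WT IQ3pos-1909A-1 (replicate 1), WT IQ3pos-1910A-2 (replicate 2) and WT IQ3pos-2003A (replicate 3). R122C replicate 1 and WT replicate 2 share the digits of their code, which no other pair across genotypes does, and are called the shared-code pair. The labels do not say what the codes mark.

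The R122C group was labelled Runx3 R122C;Iqgap3-2A-tdTomato, and the WT group Runx3 WT;Iqgap3-2A-tdTomato. Both genotypes therefore carried the reporter in which a 2A peptide joins the red fluorescent protein tdTomato to Iqgap3, and no library came from mice without it. All mice were C57BL/6 and 6 to 8 weeks old. Gastric units of the corpus, the acid-secreting main body of the stomach, were taken apart to single cells, dead cells were excluded with DAPI, and EpCAM-positive cells were sorted by the reporter into an Iqgap3-high fraction (IQ3pos) and an Iqgap3-low or negative fraction (IQ3neg). RNA of each sorted fraction was amplified before library preparation. The labels give 3 mice for each library and 4 for those of WT replicate 2, taken here as pools, so the spread between libraries is a spread between pools and not between single animals. The labels do not say whether R122C was present on one allele or both, and name no sex. The question, from the title of the study, is how R122C bears on the number of isthmus stem cells and on their differentiation.

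RUNX3 is a transcription factor of the RUNX family that binds DNA together with its partner CBFB through the Runt domain, and it acts downstream of TGF-beta and BMP signals and at cell cycle checkpoints. R122C replaces an arginine of the Runt domain with a cysteine. In the corpus gland, stem and progenitor cells of the isthmus divide and supply pit cells towards the surface and neck, parietal and chief cells towards the base. IQGAP3 is a scaffold protein of proliferating cells, and its reporter was used to collect the isthmus fraction.

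The targeted gene could not check the labels, because a point mutation need not change its transcript level. Runx3 was listed at 0 in both R122C and all 3 WT IQ3pos libraries, and Runx2 likewise. In this table a listed 0 stands for less than 1 CPM (reads scaled to library size), and 1 CPM corresponded to 176 and 262 reads in the R122C libraries and to 47.4, 146 and 265 reads in the WT libraries. Iqgap3 itself was near that floor, at log2 CPM 2.28 and 0 in R122C and at 0, 3.16 and 0 in WT. The sorted cell type was checked with Epcam, Cdh1, Krt8, Krt18, Krt19, Cldn18 and Gata4, and all 7 were above 0 in each of the 5 libraries. Epcam was at log2 CPM 9.25 and 8.99 in R122C, against 8.82, 8.95 and 8.95 in WT. WT replicate 1 was the shallowest library and stood apart, with a Spearman correlation of 0.761 to 0.776 with the other 4, which among themselves reached 0.822 to 0.863. The highest of these values joined R122C replicate 1 and WT replicate 2, the shared-code pair. Xist was at log2 CPM 4.03 and 1.58 in R122C, against 0, 7.07 and 7.80 in WT, and the Y-linked Ddx3y was at 0 and 4.38 in R122C, against 6.74, 0 and 4.54 in WT. The mix of sexes thus differed between pools, and its part in the differences below was not tested.

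Across all genes, no difference between R122C and WT passed the test. With limma on log2 CPM and Benjamini-Hochberg adjustment over 17155 genes, 0 of the 13773 genes (0%) had an adjusted p under 0.05, and the smallest adjusted p was 0.0712. At an unadjusted p under 0.05, 336 genes (2.44%) were higher and 577 genes (4.19%) were lower in R122C. The libraries of the genotypes did not overlap for 1421 genes (10.3%) that were higher in R122C and for 1236 genes (8.97%) that were lower. The difference, R122C minus WT, was positive for 7199 genes, and its median over all genes was 0.05 on the log2 scale, and the median standard error of a gene was 0.78. A difference of the size of that median error was therefore not detectable for a typical gene with 2 libraries against 3. The same was true of the test of whether the genotype difference depended on the fraction, where 0 genes (0%) passed and 227 and 217 of the genes tested had an unadjusted p under 0.05 for a larger and a smaller difference in IQ3pos.

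Among genes above 0 in all 5 libraries, those with the smallest p-values formed a lopsided group. Restricting the same test to the 8212 genes above 0 in all 5 libraries gave 18 calls, 16 lower (0.195%) and 2 higher (0.0244%) in R122C. Of the 16, 6 were transcripts of the mitochondrial genome and 2 were copies of mitochondrial genes on chromosome 1. The other 8 lay at 6 separate places in the nuclear genome and included the nuclear RNAs Malat1 and Neat1. The 2 calls in the other direction were the processed pseudogenes Gm10093 and Gm6304, whose reads may be shared with their parent genes. Gm6304 was at log2 CPM 5.33 and 5.40 in R122C, against 1.80, 0.44 and 1.01 in WT, and Gm10093 at 3.46 and 3.15 in R122C, against 0.31, 0.01 and 0.76 in WT. Both were higher in R122C IQ3neg cells too, by 4.60 and 3.00. Fits that kept genes listed at 0 in some libraries varied in direction. With no intensity trend 4 genes were called higher and 3 lower, and after quantile normalization 2 and 4. With the 5 IQ3pos libraries alone 0 were called higher and 7 lower. Limma-voom on reads read back from the CPM values called 71 genes higher and 115 lower, and of these 0 higher and 17 lower were above 0 in all 5 libraries. In that fit each listed 0 was entered as 0 reads, though it stands for any level under 1 CPM. Differences of genes listed at 0 in some libraries were widened by this, as for Klhdc4, at 12.2 with voom and 4.37 on the deposited values. Among the annotated genes of lower level at an unadjusted p under 0.05, 67.6% were protein coding and 4.81% came from the mitochondrial genome, against 82.5% and 0.252% of all annotated genes described here.

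**Figure D1:**
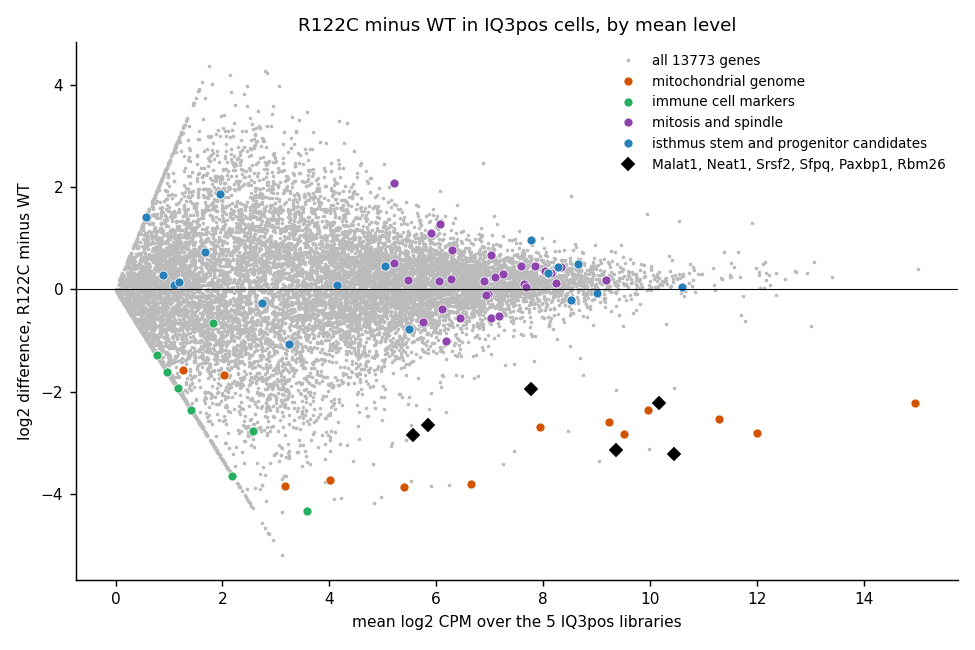
Difference between R122C and WT in IQ3pos cells (log2, R122C minus WT) against the mean log2 CPM over the 5 libraries, 1 point a gene. Grey points are all 13773 genes, and coloured points are 4 gene lists and 6 nuclear genes. Transcripts of the mitochondrial genome and Malat1, Neat1, Srsf2, Sfpq, Paxbp1 and Rbm26 lie below the cloud at middle and high levels, while mitosis and progenitor genes lie around 0, and the straight edges at the left are genes listed at 0 in a whole genotype.

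Transcripts of the mitochondrial genome were lower in R122C IQ3pos cells than in WT. This genome encodes 13 subunits of the respiratory chain and ATP synthase, along with the ribosomal RNAs of the organelle, all transcribed inside mitochondria from long precursors. All 13 protein-coding transcripts had a negative difference, with a median of -2.69, against 0.05 over all genes. Of the 13, 12 were lower at an unadjusted p under 0.05 and 12 were lower without overlap (4.19% and 8.97% of all genes were). None passed the test over 17155 genes.

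The complex I subunit mt-Nd2 was at log2 CPM 7.25 and 8.10 in R122C, against 10.45, 10.10 and 10.27 in WT. Its difference was -2.60 with a standard error of 0.44 and an adjusted p of 0.130 in limma. The subunit mt-Nd6, the protein gene read from the opposite strand of the mitochondrial genome, was at 5.81 and 6.84 in R122C, against 9.27, 8.63 and 9.15 in WT (difference -2.69, standard error 0.44, limma adjusted p = 0.104). Both R122C libraries were below all 3 WT libraries for either gene, with R122C replicate 1 the lower of the pair. Within the shared-code pair alone, the difference was -2.85 for mt-Nd2 and -2.82 for mt-Nd6.

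The transcript with the most reads was mt-Cytb, the cytochrome b of complex III, at log2 CPM 13.39 and 13.84 in R122C, against 16.38, 15.90 and 15.26 in WT. Its difference was -2.23 (standard error 0.71, limma adjusted p = 0.624). The complex IV subunit mt-Co1 was at 10.02 and 10.60 in R122C, against 13.59, 12.79 and 13.00 in WT. The groups were apart for both genes, and the spread among WT libraries was wider for mt-Cytb. The ATP synthase subunits mt-Atp6 and mt-Atp8, whose reading frames overlap by 43 bases, differed by -3.81 and -3.86. The complex I subunit mt-Nd3 was at 0 and 2.05 in R122C, against 1.24, 2.65 and 4.20 in WT, and was the 1 of the 13 whose libraries overlapped. The ribosomal RNAs showed the same order, with mt-Rnr2 at 6.59 and 7.46 in R122C, against 11.08, 9.23 and 10.86 in WT.

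As a share of all listed reads, the 13 transcripts made up 1.25% and 1.76% in R122C IQ3pos libraries, against 10.6%, 7.28% and 5.56% in WT IQ3pos libraries. They made up 2.19% and 0.914% in R122C IQ3neg libraries, against 7.24%, 2.7% and 3.25% in WT IQ3neg libraries. The R122C libraries were below the WT libraries in each fraction, and no 95% Wilson interval of a share was wider than 0.0171 percentage points, which covers counting error only. The lower share was seen in both fractions. The median difference of the 13 transcripts was -1.79 in IQ3neg cells, where 12 of 13 were lower without overlap (6.66% of all genes were). The test of whether a gene's difference depended on the fraction gave an adjusted p of 1 in limma for both mt-Nd2 and mt-Nd6.

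The nuclear genes of the same respiratory complexes had a median near that of all genes. Their median difference was 0.06 over 44 genes, or -0.03 after quantile normalization. At an unadjusted p under 0.05, 0 were higher and 1 lower (2.44% and 4.19% of all genes were). The one was Cox6c, a complex IV subunit, at log2 CPM 7.15 and 7.37 in R122C, against 8.53, 8.04 and 7.82 in WT (difference -0.87, limma adjusted p = 0.911). Without overlap, 0 of the 44 were higher and 3 lower (10.3% and 8.97% of all genes were). The cytosolic ribosomal proteins had a median of -0.05 over 78 genes, or 0.06 once libraries were centred on their own medians. Of these 78, 2 were higher and 8 lower without overlap. The one among them with an unadjusted p under 0.05 was Rps14, a subunit of the small ribosome, at 7.76 and 8.00 in R122C, against 9.26, 9.28 and 9.11 in WT (difference -1.34, limma adjusted p = 0.638).

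Reads of mitochondrial genes cannot always be told from those of their nuclear copies. The pseudogene Gm10925 on chromosome 1 is identical to mt-Atp6 over all 678 of its bases, and Gm29216 matches mt-Co1 at 482 of 483 aligned positions in the annotation used here. Gm10925 was at log2 CPM 3.80 and 4.09 in R122C, against 8.86, 6.49 and 8.00 in WT, and Gm29216 was at 1.84 and 2.83 in R122C, against 7.67, 5.15 and 6.72 in WT. Both differed in the direction of the mitochondrial genes, and reads could have been split between the copies and their partners. In whole libraries of sorted cells, fewer cells of a type and less RNA per cell cannot be told apart. The labels give no measure of RNA quality, and its part in these differences was not tested.

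**Figure D2:**
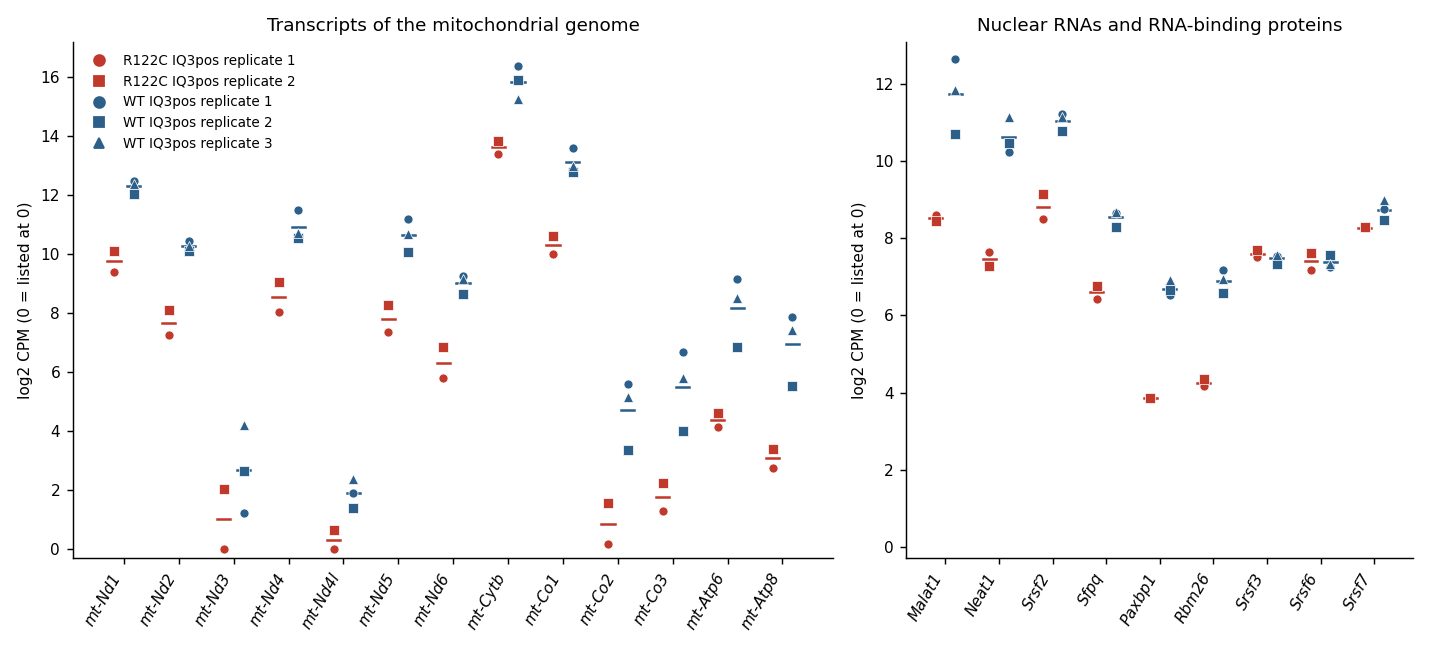
Log2 CPM of each IQ3pos library for the 13 protein-coding transcripts of the mitochondrial genome (left) and for nuclear RNAs and genes of RNA-binding proteins (right). R122C libraries are red and stand left of WT libraries in blue, the marker shape gives the replicate and the bar the group mean. Red lies below blue for 12 of the 13 transcripts and for Malat1, Neat1, Srsf2, Sfpq, Paxbp1 and Rbm26, while Srsf3 and Srsf6 overlap.

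**Figure D3:**
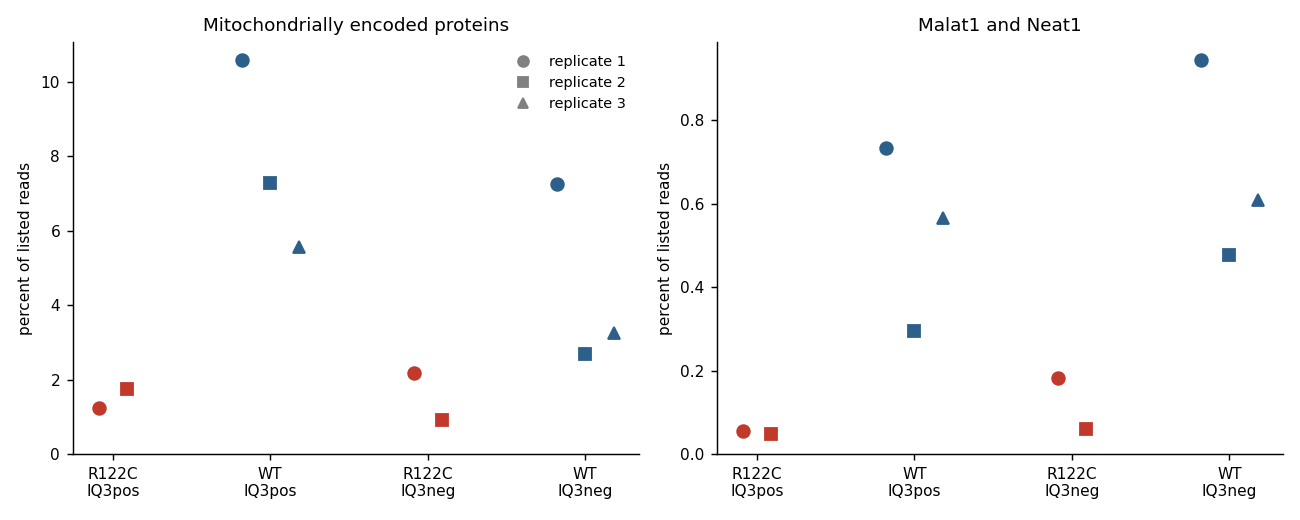
Share of listed reads, in percent, from the 13 mitochondrially encoded protein genes (left) and from Malat1 with Neat1 (right), 1 point a library, in both genotypes and fractions. R122C libraries (red) lie below the WT libraries (blue) of the same fraction in both panels.

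Malat1 and Neat1, long noncoding RNAs that stay in the nucleus and are transcribed from neighbouring loci on chromosome 19, were lower in both R122C libraries. Malat1, found at nuclear speckles, was at log2 CPM 8.61 and 8.45 in R122C, against 12.67, 10.71 and 11.85 in WT, a difference of -3.22 (standard error 0.63, limma adjusted p = 0.226). Neat1, the scaffold of paraspeckles, was at 7.66 and 7.30 in R122C, against 10.25, 10.48 and 11.14 in WT, a difference of -3.15 (standard error 0.56, limma adjusted p = 0.151). The genotypes did not overlap for either, and within the shared-code pair the differences were -2.10 and -2.83. Together they made up 0.0562% and 0.0480% of listed reads in R122C, against 0.734%, 0.295% and 0.567% in WT. Both were also lower in R122C IQ3neg cells, by differences of -2.64 and -2.24.

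Among the other genes above 0 in all 5 libraries, those with the smallest p included Srsf2, Sfpq, Paxbp1 and Rbm26. Srsf2, a splicing factor of nuclear speckles, was at log2 CPM 8.51 and 9.14 in R122C, against 11.24, 10.78 and 11.16 in WT (difference -2.23, standard error 0.40, limma adjusted p = 0.153). Sfpq, a paraspeckle protein, was at 6.43 and 6.77 in R122C, against 8.65, 8.29 and 8.69 in WT (difference -1.94, standard error 0.36, limma adjusted p = 0.167). The R122C libraries were below every WT library for both genes. Paxbp1 was at 3.86 and 3.85 in R122C, against 6.53, 6.65 and 6.92 in WT, and its adjusted p was 0.0772 in limma. Rbm26, an RNA-binding protein gene, was at 4.16 and 4.35 in R122C, against 7.19, 6.57 and 6.95 in WT, with the same adjusted p. For both genes the R122C libraries were close to each other and well below every WT library.

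The list of SR proteins and speckle genes, which holds Malat1, Neat1, Srsf2 and Sfpq, was divided. Of its 14 genes, these 4 were lower and 0 higher at an unadjusted p under 0.05 (4.19% and 2.44% of all genes were), 7 had a positive difference, and the median was -0.08. Without overlap, 6 were lower and 3 higher (8.97% and 10.3% of all genes were). The further lower ones were Srsf5, at log2 CPM 6.46 and 7.70 in R122C, against 8.17, 7.96 and 7.81 in WT, and Srsf7, at 8.26 and 8.30 in R122C, against 8.76, 8.47 and 9.0 in WT. The higher ones were Srsf1, Srsf9 and Nono, and the others overlapped. Srsf3 was at log2 CPM 7.51 and 7.71 in R122C, against 7.55, 7.32 and 7.58 in WT, and Srsf6 was at 7.18 and 7.63 in R122C, against 7.27, 7.58 and 7.34 in WT. Nono, the partner of Sfpq in paraspeckles, was at 8.16 and 8.47 in R122C, against 7.03, 7.77 and 7.54 in WT, higher in R122C without overlap (difference 0.87, limma adjusted p = 0.930). Thus Sfpq and Nono differed in opposite directions between the same libraries.

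Where genes overlap, their reads could not be told apart, since the sources used here do not say whether counting used strand. Gm12940, the entry with the smallest p of all, was at log2 CPM 5.41 and 5.72 in R122C, against 9.0, 8.28 and 8.92 in WT (difference -3.17, standard error 0.40, limma adjusted p = 0.0712). It lies on chromosome 4 and shares 3283 bases with Sfpq on the same strand, and 2305 with Zmym1 on the opposite strand. Srsf2 lies whole within Mettl23, which runs on the other strand of chromosome 11 and was lower by a similar amount, at 7.95 and 8.43 in R122C, against 10.32, 10.01 and 10.15 in WT. Gm37376 lies within Malat1 on the opposite strand. The members of each pair are thus not separate observations. Gm12940, Gm37376, Zmym1, mt-Rnr2, Gm10925, Gm29216, Gm6304, Gm10093, Apoe, Ccn3 and Gc were chosen for mention after their values were seen.

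The test over genes above 0 in all 5 libraries called Malat1, Neat1, Srsf2, Sfpq, Paxbp1 and Rbm26 lower in R122C, along with mt-Nd2, mt-Nd5, mt-Nd6, mt-Atp6, mt-Atp8 and mt-Rnr2. The adjusted p-values of these 12 in limma lay between 0.0193 and 0.0483 there. Over all 26 alternatives the adjusted p of Neat1 in limma ranged from 0.0130 to 1 and that of mt-Nd2 from 0.0138 to 1. The highest values came from the fit with the title code as a term. In that fit the genotypes are joined only through the code they share, over the libraries of both fractions.

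Promoters were looked up for the 24 genes with the smallest p, 12 in each direction, that were above 0 in all 5 libraries and were not predicted genes or pseudogenes. That of Malat1 is shown because this gene had the largest negative difference among those of the 24 with a promoter entry. RUNX proteins bind the core TGTGGT or TGCGGT. In the RefSeq window of GRCm38.p6 from 250 bases before to 50 bases after the start of Malat1, chr19:5802623-5802922 on the minus strand, neither core was found on either strand, so no letters are in capitals.
Malat1: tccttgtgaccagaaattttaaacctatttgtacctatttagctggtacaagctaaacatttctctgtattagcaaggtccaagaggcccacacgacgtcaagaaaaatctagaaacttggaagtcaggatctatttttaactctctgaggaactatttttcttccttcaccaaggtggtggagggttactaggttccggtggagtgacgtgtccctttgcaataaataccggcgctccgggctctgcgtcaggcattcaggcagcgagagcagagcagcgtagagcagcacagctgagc
Over all 32851 promoter windows of the same length, 22.4% held at least 1 such core on either strand. Of the 6 windows matched to 6 of the 12 named genes lower in R122C, 2 held one. These counts describe letters and say nothing of binding.

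In the other direction, the 12 genes with the smallest p, leaving out predicted genes and pseudogenes such as Gm6304 and Gm10093, did not pass the test either. Prpf3, a component of the spliceosome, was at log2 CPM 6.00 and 4.83 in R122C, against 2.82, 0.35 and 3.16 in WT (difference 3.31, standard error 1.01, limma adjusted p = 0.573). Gbe1, the branching enzyme of glycogen synthesis, was at 5.61 and 5.43 in R122C, against 3.93, 4.16 and 3.48 in WT (difference 1.66, standard error 0.49, limma adjusted p = 0.528). The genotypes did not overlap for either gene. Banp, a nuclear DNA-binding protein gene, was at 3.54 and 3.54 in R122C, against 0.75, 0.66 and 0.63 in WT, close to the floor of the table. The others named by the same rule were Ankrd13a, Ei24, Lias, Scap, Prrc1, Pdcd11, Ttf1, Ciao3 and Ide, with differences between 1.37 and 2.78. In IQ3neg cells the difference of Prpf3 was 0.31 and that of Gbe1 0.20, and the test of the difference between fractions gave an adjusted p of 1 in limma for each.

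The promoter of Prpf3 is shown because this gene had the largest positive difference among the same 24, and its window holds 1 core on the opposite strand, shown in capitals. It covers chr3:95855836-95856135 on the minus strand of GRCm38.p6, and is the first of 2 windows that RefSeq gives for the gene.
Prpf3: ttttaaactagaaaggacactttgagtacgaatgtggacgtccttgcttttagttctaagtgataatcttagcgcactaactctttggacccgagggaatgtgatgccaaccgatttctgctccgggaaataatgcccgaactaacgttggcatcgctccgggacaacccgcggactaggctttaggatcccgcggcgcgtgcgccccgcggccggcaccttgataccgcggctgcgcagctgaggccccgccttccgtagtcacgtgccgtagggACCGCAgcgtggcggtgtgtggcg
Of the 13 windows matched to 10 of the 12 named genes higher in R122C, 4 held a core.

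No gene of cell division passed the test in IQ3pos cells. Of 30 genes of mitosis and the spindle, 0 had an unadjusted p under 0.05, and the median difference was 0.20. Of all genes, 2.44% were higher and 4.19% lower at that p. Mki67, a marker of cycling cells, was at log2 CPM 8.94 and 7.64 in R122C, against 7.28, 8.43 and 8.17 in WT (difference 0.33, standard error 0.52, limma adjusted p = 1). The R122C libraries lay on either side of the WT libraries 2 and 3. The sign of the list was set by single libraries, since its median was -0.14 without WT replicate 1 and -0.32 without R122C replicate 1. The spindle checkpoint kinase Bub1 was among the 2 of 30 genes higher in R122C without overlap (10.3% of all genes were), at 7.05 and 6.64 in R122C, against 4.57, 5.76 and 6.34 in WT (limma adjusted p = 0.963).

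In IQ3neg cells the same list stood further apart, with a median difference of 1.34 and 15 of 30 genes higher in R122C without overlap, as were 7.2% of all genes. Its levels there were low in WT IQ3neg replicate 1, where the median over the list was log2 CPM 1.78, while it was 4.84 and 4.79 in the R122C IQ3neg libraries and 4.37 and 4.49 in WT IQ3neg replicates 2 and 3. No gene passed the test of the difference between fractions.

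The 29 genes of DNA replication had a median difference of 0.49 in IQ3pos cells and 0 genes with an unadjusted p under 0.05. That median was 0.05 without WT replicate 1. The licensing factor Cdt1 was at log2 CPM 3.66 and 2.80 in R122C, against 0, 3.30 and 0 in WT. Of 26 MYC targets and ribosome biogenesis genes 23 had a positive difference, with a median of 0.22 and 0 genes under that p. Wdr74, a ribosome assembly factor, was at 6.55 and 6.52 in R122C, against 5.84, 5.74 and 6.02 in WT, without overlap (difference 0.67, limma adjusted p = 0.954). Myc itself was at 6.52 and 5.02 in R122C, against 5.15, 6.59 and 6.42 in WT, and overlapped.

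Candidate markers of isthmus stem and progenitor cells showed no common direction. The median over 18 genes was 0.21, or -0.20 without R122C replicate 1, and 0 had an unadjusted p under 0.05. Stmn1, a microtubule regulator high in dividing isthmus cells, was at log2 CPM 8.68 and 8.00 in R122C, against 6.73, 8.01 and 7.40 in WT (difference 0.96, standard error 0.69, limma adjusted p = 0.963). Lrig1, a negative regulator of EGF receptors, was at 3.21 and 1.99 in R122C, against 3.86, 4.02 and 3.10 in WT. Tnfrsf19, a receptor found on several stem cells, was the 1 gene of the list without overlap, at 1.55 and 1.28 in R122C and listed at 0 in all 3 WT libraries. As Tnfrsf19 was measured in R122C alone, the filter fixed its sign. Runx1, the RUNX gene with a measurable level, was at 4.85 and 3.53 in R122C, against 4.56, 4.28 and 3.51 in WT, and the shared partner Cbfb was at 5.68 and 6.14 in R122C, against 3.61, 6.27 and 2.11 in WT. Both overlapped between genotypes.

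Inhibitors of the cell cycle included genes with lower levels in R122C. Cdkn1a, which encodes p21 and responds to p53 and TGF-beta, was at log2 CPM 3.63 and 3.52 in R122C, against 5.98, 5.08 and 4.63 in WT (difference -1.66, standard error 0.54, limma adjusted p = 0.631). Rb1, the retinoblastoma gene, was at 3.68 and 3.62 in R122C, against 5.13, 4.95 and 5.57 in WT (difference -1.57, standard error 0.59, limma adjusted p = 0.809). For both genes the R122C libraries were nearly equal and below every WT library. They were the 2 of 11 inhibitors lower at an unadjusted p under 0.05, as were 4.19% of all genes, and the list had a median of -0.24, or -0.05 without WT replicate 1. In IQ3neg cells the difference of Rb1 was 0.74, and the test of the difference between fractions gave an adjusted p of 1 in limma. The p53 targets were mixed, with 6 of 13 positive and a median of -0.06. Of the 14 TGF-beta and BMP targets 1, Cdkn1a, was lower at an unadjusted p under 0.05 (4.19% of all genes were).

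**Figure D4:**
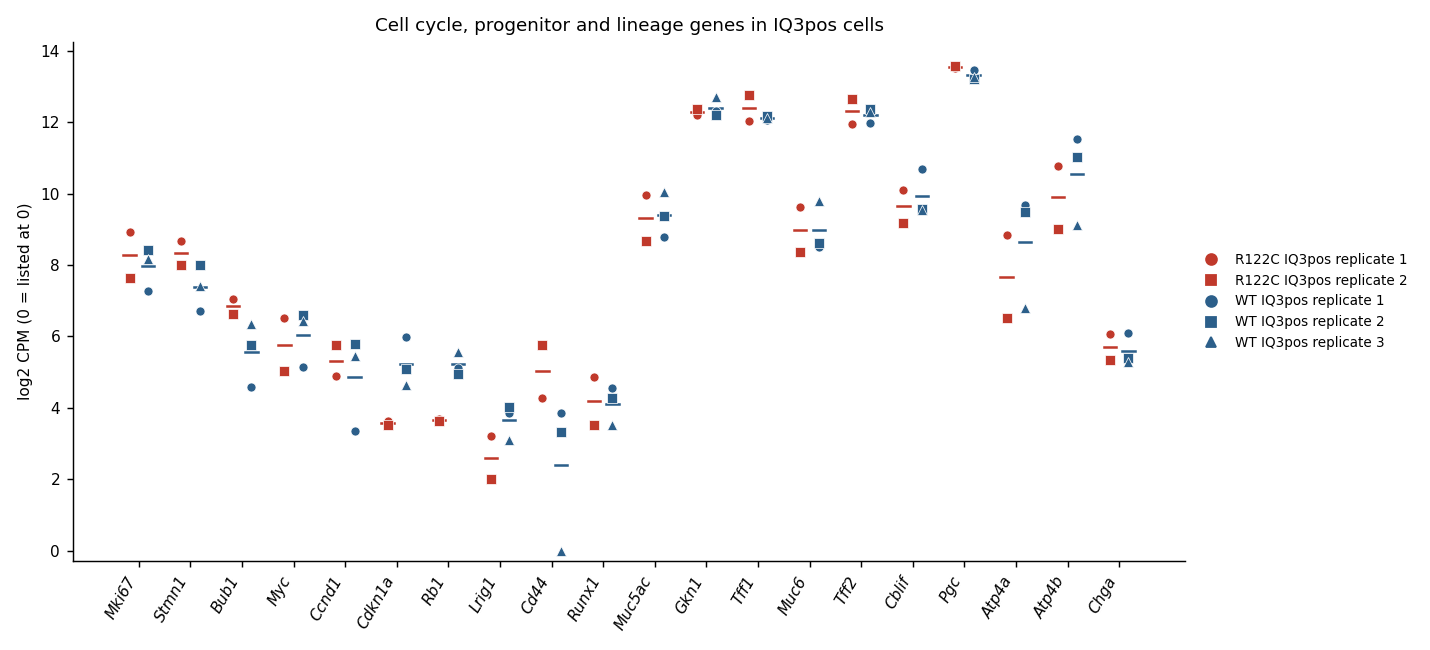
Log2 CPM of each IQ3pos library for genes of the cell cycle, of progenitors and of the corpus lineages. R122C libraries are red and stand left of WT libraries in blue, the marker shape gives the replicate and the bar the group mean. Cdkn1a, Rb1 and Cd44 are among the genes whose genotypes do not overlap, and those of Muc5ac, Gkn1, Muc6 and Tff2 overlap.

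Markers of the differentiated corpus lineages overlapped for most genes. In pit cells, which cover the surface with mucus, Muc5ac was at log2 CPM 9.96 and 8.69 in R122C, against 8.79, 9.36 and 10.03 in WT, and Gkn1 was at 12.22 and 12.37 in R122C, against 12.32, 12.19 and 12.72 in WT. The groups overlapped for both of these genes. The median over 13 pit genes was 0.28, and 9 of them had a positive difference. Without overlap, 3 were higher and 1 lower in R122C (10.3% and 8.97% of all genes were). Of the 13, 1 was listed at 0 in all 3 WT libraries, which fixes its sign.

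Genes of mucous neck cells all had a positive difference, 8 of 8, as did 7199 of all 13773 genes, with a median of 0.29. Of the 8, 3 did not overlap (10.3% of all genes were higher without overlap). The neck cell enzyme A4gnt, which caps the mucin glycans of gland mucus, was at log2 CPM 7.64 and 7.43 in R122C, against 6.23, 6.53 and 7.42 in WT (difference 0.81, limma adjusted p = 0.963). Muc6, the gland mucin itself, was at 9.63 and 8.36 in R122C, against 8.51, 8.61 and 9.80 in WT. Tff2, a trefoil peptide of neck cells, was at 11.95 and 12.66 in R122C, against 11.99, 12.37 and 12.28 in WT. Muc6 and Tff2 overlapped between the genotypes, while A4gnt and Pgc, which is also in this list, did not. The lower R122C value of A4gnt, 7.43, was just above the 7.42 of WT replicate 3.

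Among chief cell genes, Pgc, the pepsinogen C gene, was at log2 CPM 13.51 and 13.58 in R122C, against 13.46, 13.20 and 13.28 in WT. Cblif, intrinsic factor, was at 10.12 and 9.19 in R122C, against 10.70, 9.56 and 9.54 in WT. The chitinase Chia1 was at 11.02 and 7.59 in R122C, against 12.38, 10.71 and 10.58 in WT (difference -1.92, standard error 0.93, limma adjusted p = 0.911), with the R122C libraries further from each other than the group means. The median over 6 chief cell genes was -0.02.

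In parietal cells, the acid-secreting cells, the proton pump subunits Atp4a and Atp4b varied more within than between genotypes. Atp4a was at log2 CPM 8.84 and 6.52 in R122C, against 9.67, 9.47 and 6.80 in WT, and Atp4b was at 10.79 and 9.0 in R122C, against 11.53, 11.04 and 9.13 in WT. R122C replicate 2 and WT replicate 3 were the low libraries for both. Of 18 parietal genes 0 were higher and 2 lower at an unadjusted p under 0.05 (4.19% of all genes were lower). The 2 were the water channel Aqp4 and the potassium channel Kcnq1, both measured in WT alone, which fixes their sign. Aqp4 was listed at 0 in both R122C libraries, against 5.20, 3.64 and 1.83 in WT, and Kcnq1 was listed at 0 in both, against 4.28, 2.55 and 2.62 in WT. Their adjusted p-values were 0.811 and 0.842 in limma.

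Enteroendocrine cells, the hormone cells of the gland, gave genes in both directions. Chga, a granule protein, was at log2 CPM 6.07 and 5.35 in R122C, against 6.11, 5.40 and 5.29 in WT. Snap25, which takes part in vesicle release, was at 2.73 and 2.18 in R122C, against 0, 0 and 0.51 in WT (difference 2.28, standard error 0.60, limma adjusted p = 0.405). Isl1, an endocrine transcription factor, was at 5.45 and 5.76 in R122C, against 6.95, 6.77 and 6.98 in WT (difference -1.30, standard error 0.43, limma adjusted p = 0.646). The genotypes did not overlap for Snap25 and Isl1, and the list of 11 genes had 1 higher and 3 lower at an unadjusted p under 0.05, against 2.44% and 4.19% of all genes.

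Of 16 genes of metaplasia, the replacement of one gastric cell type by another after injury, 2 were higher and 0 lower in R122C at an unadjusted p under 0.05, against 2.44% and 4.19% of all genes. The median was 0.40, or 0.22 without WT replicate 1. Cftr, a chloride channel, was at log2 CPM 4.01 and 2.42 in R122C and listed at 0 in all 3 WT libraries (limma adjusted p = 0.557). As Cftr was measured in R122C alone, the filter fixed its sign. Cd44, a receptor for hyaluronan and a WNT target, was at 4.29 and 5.75 in R122C, against 3.85, 3.32 and 0 in WT (difference 2.63, standard error 1.14, limma adjusted p = 0.911). Within the shared-code pair the difference of Cd44 was 0.96, and its size rests in part on WT replicate 3. Outside that list, the simple epithelial keratin Krt7 was at 2.69 and 3.17 in R122C, against 0, 0.99 and 0 in WT (difference 2.60, standard error 0.77, limma adjusted p = 0.511).

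Intestinal genes lay in the other direction, with 2 of 11 positive and a median of -1.32, but 3 of the 11 were measured in WT alone, which fixes their sign. Apoa4, an apolipoprotein of enterocytes, was listed at 0 in both R122C libraries, against log2 CPM 5.70, 4.71 and 4.30 in WT (limma adjusted p = 0.267). Apoa1 was at 6.56 and 4.37 in R122C, against 8.11, 6.88 and 6.47 in WT (difference -1.69, limma adjusted p = 0.842). In IQ3neg cells Apoa4 was at 3.02 and 0 in R122C, against 3.18, 1.78 and 2.84 in WT. Sis, a brush border enzyme of the intestine, was at 0 and 1.82 in R122C, against 2.30, 0 and 4.40 in WT, and overlapped. Within the shared-code pair the median of the list was -0.23, and without R122C replicate 2 it was -0.59.

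Markers of immune cells, which the EpCAM sort should leave out, were scarce in both genotypes. Of 21 markers, 8 were measured in at least 2 of the 5 libraries, and 5 of these 8 were listed at 0 in both R122C libraries, so that the filter fixed their sign. Summed over all 21, the markers reached 14.7 and 0 CPM in R122C, against 324, 71.8 and 52.7 CPM in WT. The T and B cell markers Cd3g and Cd79a and the myeloid integrin Itgam were listed at 0 in all 5 libraries. The macrophage marker Cd68 was at 0 and 0 in R122C, against log2 CPM 5.01, 2.30 and 3.63 in WT (limma adjusted p = 0.557), and lysozyme Lyz2 was at 1.95 and 0 in R122C, against 7.69, 5.40 and 2.84 in WT. WT replicate 1 was highest for both. Plasma cell markers summed to 65.2 and 46.0 CPM in R122C, against 105, 52.7 and 79.5 CPM in WT, and those of mast, endothelial and erythroid cells had no gene measured in at least 2 libraries.

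Genes of antigen presentation were mixed. Of the 11 MHC genes 3 had a positive difference, 1 was lower at an unadjusted p under 0.05 (4.19% of all genes were), and the median was -0.76. The class II gene H2-Ab1 was at log2 CPM 5.92 and 0.63 in R122C, against 8.73, 6.86 and 5.51 in WT (difference -3.76, standard error 1.36, limma adjusted p = 0.776). The class I gene H2-K1 was at 8.21 and 8.11 in R122C, against 7.60, 8.55 and 8.96 in WT. WT replicate 1 was the highest library for both H2-Ab1 and Cd68, and the lowest for H2-K1. Without R122C replicate 2 the median of the MHC genes was -0.16. Apoe, an apolipoprotein made by macrophages and by some epithelia, was at 4.56 and 2.60 in R122C, against 9.48, 7.08 and 5.74 in WT (difference -3.85, standard error 1.14, limma adjusted p = 0.528). The part of immune cells in these values was not tested.

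Genes induced by interferon had a median of -0.46 over 19 genes, or 0.09 without WT replicate 3, with 0 higher and 2 lower at an unadjusted p under 0.05, against 2.44% and 4.19% of all genes. The regulator Irf7 was at log2 CPM 2.93 and 1.92 in R122C, against 4.47, 5.01 and 4.78 in WT (limma adjusted p = 0.911), and Stat2 was at 2.09 and 0 in R122C, against 4.38, 2.62 and 4.47 in WT. Immediate early genes, which tissue dissociation can induce, had a median of -0.50 over 19 genes and 0 with an unadjusted p under 0.05. Fos was at 8.95 and 8.97 in R122C, against 8.98, 8.85 and 9.45 in WT.

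In all, 20 of the 39 gene lists with measured genes had a positive median and 19 a negative one. The positive sign stood in 13 and the negative sign in 9 when each of the 5 IQ3pos libraries was left out in turn. Among lists with at least 6 genes and no gene listed at 0 in every library of a genotype, the mitochondrial genome lay furthest from 0, at -2.69.

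**Figure D5:**
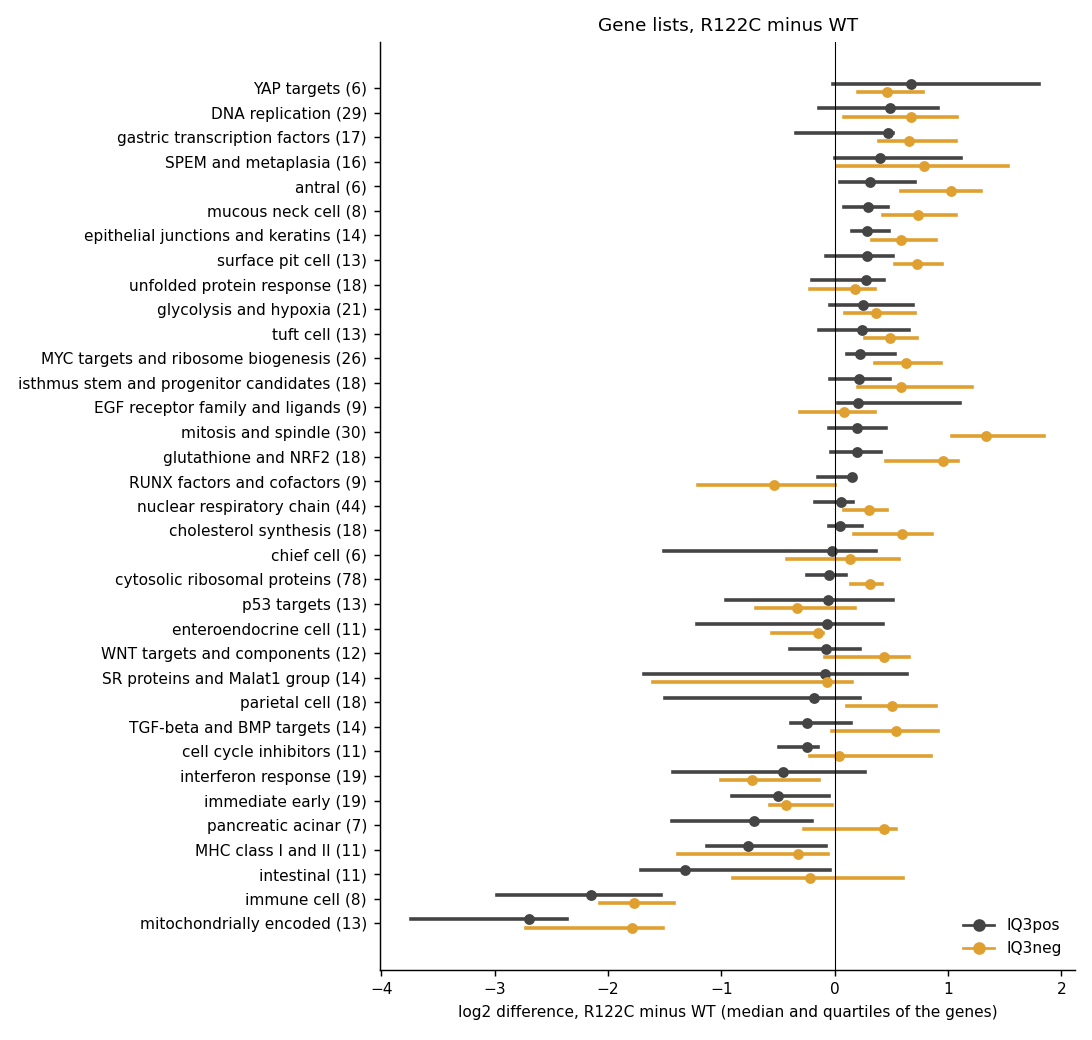
Median (point) and quartiles (line) of the log2 difference between R122C and WT over the genes of each list with at least 6 measured genes, in IQ3pos cells (grey) and IQ3neg cells (yellow), with the number of genes in brackets. Most lists lie within 1 log2 unit of 0, and the mitochondrial genome lies lowest in IQ3pos cells, at -2.69. The low places of the immune markers and intestinal genes rest in part on genes measured in WT alone, 5 of 8 and 3 of 11.

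A further set of genes was detected in a single genotype. Of the 13773 genes, 156 were above 0 in both R122C libraries and listed at 0 in all 3 WT libraries, and 198 were listed at 0 in both R122C libraries and above 0 in all 3 WT libraries. None of them passed the test over all genes. The lowest level that could be listed was 1 CPM, so a listed 0 does not show that a transcript was absent.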

How the data were processed

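RNA of 10 sorted libraries was sequenced, and the 5 IQ3pos libraries are described here. The submitters' processing notes list edgeR, featureCounts, Subread 2.0.0, the aligner STAR in version 2.7.1a, and the builds GRCm38 and mm10. The deposited values are log2 CPM per gene symbol, set by the authors to 0 below 1 CPM, so that small differences near the floor are lost. The steps between deposited values gave whole reads for 100% of values within 0.05 read, with 47.4 to 265 reads per CPM in the IQ3pos libraries. The error of counting reads is therefore small beside the spread between libraries. As RNA was amplified first, reads do not give the number of RNA molecules sampled. The p-values rest on the spread between libraries within all 4 groups. Of the 55276 symbols, 53362 were in GENCODE M21, and 26 had been turned into dates.

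R122C was compared with WT with limma 3.58.1 in R 4.3.3, two-sided, fitted to the log2 values as deposited, with the 10 libraries as 4 groups, over the 17155 genes above 0 in at least 2 libraries, with an intensity trend and Benjamini-Hochberg adjustment. An unadjusted p under 0.05 is used to count genes, not to call them. The procedure was run on simulated data with large differences in genes well above the floor. That run does not measure power for smaller differences or for genes near the floor. The alternatives were other scales, filters, pseudocounts, sets of libraries, blocks and moderation, and limma-voom on the reads.

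Genes were named as fixed single genes, as the 12 with the smallest p in each direction among genes above 0 in all 5 libraries, since none passed, leaving out predicted genes, clones, pseudogenes, small RNAs, immunoglobulin segments and dates, and as the leading genes of each list. Further list members, and genes that overlap a named one, were named after their values were seen. The members and lists were chosen with earlier results of these data known.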

Additional observations from a re-analysis of the deposited data

Results flagged for a closer look

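Ccn3, a matricellular growth regulator gene, was singled out because its genotype difference ran in opposite directions in the fractions. In IQ3pos cells it was at log2 CPM 4.48 and 4.51 in R122C, against 4.46, 0.31 and 0 in WT. The R122C libraries were thus only just above WT replicate 1. In IQ3neg cells Ccn3 was at 8.82 and 8.48 in R122C, against 9.12, 9.60 and 9.18 in WT. The IQ3pos difference exceeded the IQ3neg difference by 3.55, with an unadjusted p of 0.0287 and an adjusted p of 1 in limma. Without WT IQ3pos replicate 1, Ccn3 and Gc, which encodes a vitamin D carrier, were the 2 genes that passed the test in IQ3pos cells.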

How the results depend on the processing

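The count of genes that passed in IQ3pos cells was 0 in the fit described and in 14 of 26 alternatives. It was 1 with genes above 0 in at least 5 of 10 libraries, with log2(CPM + 4), with robust moderation and with the replicate number as a replicate block. It was 2 with each library centred on its median and without WT replicate 1 of both fractions, 6 after quantile normalization, and 7 with the 5 IQ3pos libraries alone or with no intensity trend. It was 18 over genes above 0 in all 5 IQ3pos libraries and 186 with voom, of which 17 were above 0 in all 5. Leaving out 1 library at a time gave 0 to 2. In IQ3neg cells it was 4 with no filter and 1 over genes above 0 in all 5 IQ3pos libraries. For the difference between fractions it was 2 without WT replicate 1 of both fractions. The causes were not tested.

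The median of the mitochondrially encoded list ranged from -3.11 to -2.18 when 1 library was left out. The number of lists with a positive median was 10 of 39 with the title code as a term, against 20. Centring shifted the median of all genes by 0.11. Of 58 named genes with an unadjusted p under 0.05, 0 turned sign in a fitted alternative, and of 63 others 20 did. Many of the 58 were named for a small p, and the alternatives refit the same libraries. Some, such as Cftr and Apoa4, were measured in a single genotype, which fixes their sign. These counts therefore do not measure how stable the signs are. Try4, a trypsin gene, differed by -1.44 overall and by 0.0859 within the shared-code pair, with no test.

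Deviations of same-numbered libraries of the genotypes from their group means correlated at r = -0.06 and -0.10. With 2 R122C libraries these deviations mirror each other, so the values cannot decide whether the numbers pair the libraries. The fit with the replicate number as a block called Apoe alone. With pools of one genotype and code as a replicate block, 0 genes passed. With 2 R122C pools and a floor of 1 CPM, differences near the typical standard error and levels of scarce transcripts such as Runx3 were not detectable.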
